A study of Homo sapiens with 24 samples.

Results

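The regions described here carried histone H3 acetylated on lysine 27 (H3K27ac) in control MCF10A (10A) cells and in MCFDCIS (DCIS) cells with and without ANCO1 knockdown. They were chosen by row presence alone. A region enriched over input in 10A shCTRL cells was kept when at least 1 bp of it overlapped a region of the DCIS shCTRL table and at least 1 bp overlapped a region of the DCIS shANCO1 table. This left 6241 of the 15490 regions of the 10A shCTRL table, or 40.3%, out of 171345 rows in all 6 tables of the series. Because the rule asks for the mark in DCIS shANCO1 cells too, 801 regions marked in the control cells of both lines and in no overlapping DCIS shANCO1 region were left out. Of the other 9249 10A shCTRL regions, 2123 overlapped only the DCIS shANCO1 table and 6325 overlapped neither DCIS table.

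H3K27ac was profiled by ChIP-seq in 24 libraries, 3 for each of 8 groups. The groups were immunoprecipitated chromatin and non-immunoprecipitated input from 10A and DCIS cells, each carrying either shANCO1 after lentiviral infection (genotype ANCO1 knockdown) or shCTRL (genotype shGFP control). 10A is an immortalized human mammary epithelial line used as a pre-malignant model, and DCIS is a line used as a model of ductal carcinoma in situ. By the paper's account, the DCIS line came from xenograft tumours of 10A cells transfected with an oncogene, so the lines are related. All cells were grown in the same medium with horse serum, EGF, hydrocortisone, insulin and cholera toxin, so every group was under EGF. ANCO1 is the protein encoded by ANKRD11. Nothing in the labels says that the 3 libraries of a group came from separate cultures, and whether the lines were pools or clones was not given in the sources used here. The H3K27ac comparisons used the line named shANCO1 #3. Values were deposited for whole groups, so the depth of the libraries and the spread between replicates are unknown, and the statements on change rest on the FDR of the csaw test in the deposited tables. Whether each group was set against its own inputs, and how libraries were scaled, were not given in the sources used here.

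Acetylation of lysine 27 on histone H3 is laid down mainly by the acetyltransferases p300 and CBP and removed by histone deacetylases. It marks active promoters, where it lies on the nucleosomes that flank the nucleosome-poor start of transcription, and active enhancers, which can lie far from genes. ANKRD11 is a nuclear protein known to bind p160 coactivators and histone deacetylases.

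Sequences are given for 5 of the regions to show what the set holds (GRCh38, plus strand). Capitals mark CpG dinucleotides and, where present, the AP-1 heptamer TGACTCA, which Fos and Jun dimers bind. The first 4 were taken at the centre of the part common to the 3 tables. They are an intergenic region that rose in both lines, an intronic stretch beside the TNIP1 transcription start site (TSS) that also rose in both, an intronic stretch beside the PDGFC TSS that rose in 10A and fell in DCIS, and an intronic AKAP6 region that fell in 10A and rose in DCIS. The last was chosen after its values were seen, as an example of an intronic region with an AP-1 heptamer that rose in both lines (within IL1RAPL1).
chr3:150371551-150371850, up in both lines: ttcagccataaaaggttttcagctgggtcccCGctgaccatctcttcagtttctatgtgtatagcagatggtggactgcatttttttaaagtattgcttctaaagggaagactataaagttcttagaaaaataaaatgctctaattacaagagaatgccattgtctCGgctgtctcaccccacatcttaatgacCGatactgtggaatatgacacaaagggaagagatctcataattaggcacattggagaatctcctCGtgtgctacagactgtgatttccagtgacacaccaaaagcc
chr5:151081401-151081700, TNIP1, up in both lines: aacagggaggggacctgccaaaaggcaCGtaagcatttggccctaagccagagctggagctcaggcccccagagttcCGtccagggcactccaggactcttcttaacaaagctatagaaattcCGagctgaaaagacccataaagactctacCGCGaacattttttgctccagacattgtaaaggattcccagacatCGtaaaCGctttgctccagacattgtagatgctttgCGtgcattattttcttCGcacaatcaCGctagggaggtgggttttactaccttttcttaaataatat
chr4:156970351-156970650, PDGFC, up in 10A and down in DCIS: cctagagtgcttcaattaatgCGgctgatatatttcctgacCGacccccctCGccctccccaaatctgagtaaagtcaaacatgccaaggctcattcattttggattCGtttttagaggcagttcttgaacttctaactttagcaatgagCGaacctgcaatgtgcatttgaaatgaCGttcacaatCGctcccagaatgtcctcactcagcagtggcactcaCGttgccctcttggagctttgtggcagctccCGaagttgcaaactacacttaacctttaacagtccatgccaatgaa
chr14:32473101-32473400, AKAP6, down in 10A and up in DCIS: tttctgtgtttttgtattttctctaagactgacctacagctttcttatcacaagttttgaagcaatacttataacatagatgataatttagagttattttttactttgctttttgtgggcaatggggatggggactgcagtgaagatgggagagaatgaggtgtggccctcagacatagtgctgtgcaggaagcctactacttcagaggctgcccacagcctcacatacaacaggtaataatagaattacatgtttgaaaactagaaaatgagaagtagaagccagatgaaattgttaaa
chrX:29662051-29662350, IL1RAPL1, up in both lines: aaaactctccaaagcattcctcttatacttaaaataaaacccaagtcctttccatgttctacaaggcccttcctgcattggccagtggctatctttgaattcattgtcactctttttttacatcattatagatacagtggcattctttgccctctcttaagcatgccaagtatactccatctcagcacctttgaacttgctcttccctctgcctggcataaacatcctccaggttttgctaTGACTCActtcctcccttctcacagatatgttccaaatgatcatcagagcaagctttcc
The AKAP6 and IL1RAPL1 stretches held 0 CpG dinucleotides, with 38.0% and 41.7% G and C. The TNIP1 and PDGFC stretches held 10 and 9 CpG dinucleotides. Over all 6241 regions, the 300 bp at the midpoint held a median of 9 CpG dinucleotides and 50% G and C. In the other 10A shCTRL regions these medians were 2 CpG dinucleotides and 38.7%.

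The common regions were mostly promoter-flanking. A TSS of a protein-coding transcript (GENCODE release 44, basic set) lay within 1 kb of 3963 of them (63.5%), against 1855 (20.1%) of the other 9249. These starts belonged to 3857 protein-coding genes. Only 1152 common regions (18.5%) had a TSS inside, against 233 (2.52%) of the others. The profile around the 3844 canonical starts with a common region within 3 kb had a peak on each side of the start. A common region covered 53.8% of these starts at 300 bp downstream, 31.8% at 400 bp upstream and 15.5% at 100 bp upstream. The regions were narrow, with a median width of 500 bp (quartiles 300 and 800 bp, range 200 to 5000 bp), and together covered 4.43 Mb.

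**Figure D1:**
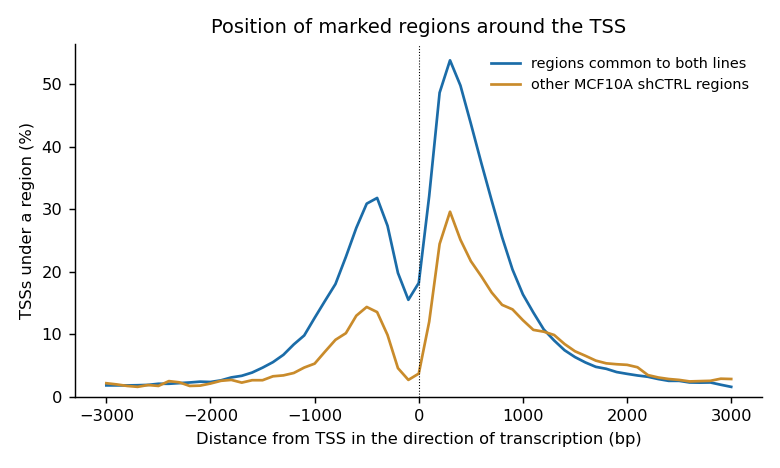
Share of canonical transcription start sites (percent, y axis) that lie under a marked region at each distance from the start (bp, x axis, downstream positive), for starts with such a region within 3 kb. The blue line stands for the 6241 common regions and the orange line for the other 9249 10A shCTRL regions. Both lines dip just upstream of the start and peak on each side of it, at 53.8% downstream for the common regions.

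The enrichment over input that placed a region in each table is a value of the selection and is given as a description. Its median log2 fold over input was 2.89 in 10A shCTRL, 4.24 in DCIS shCTRL and 4.83 in DCIS shANCO1 for the common regions, against 3.68 in 10A shCTRL for the other 10A shCTRL regions. The median in 10A shCTRL was thus lower than in the other 10A shCTRL regions. The table of 10A shANCO1 cells took no part in the selection. There, 6160 common regions (98.7%) overlapped a marked region, which covered 97.7% of their bases, and 81 had none. The overlapping 10A shANCO1 regions were wide, with a median of 1600 bp, against 800 bp for those of DCIS shCTRL and 900 bp for those of DCIS shANCO1. For the other 10A shCTRL regions the share was 91.3% (8447). Of the 81 regions without a marked 10A shANCO1 region, 26 (32.1%) had a TSS within 1 kb, 11 were called up and 9 were called down in the direct comparison of 10A. Over all common regions 71.7% were called up and 0.272% down, and over all tested 10A regions 43.6% and 0.225%. The 81 were set apart by the marks of the 10A shANCO1 group, which also entered the direct comparison, so their calls are not independent of that choice.

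The direct comparison of shANCO1 with shCTRL asks how these regions differed once ANCO1 was depleted. Each common region took the directly tested region with which it shared most bases, and every one of the 6241 had such a region in both lines. Directly tested regions were wider than the common regions, with medians of 2900 bp in 10A and 2700 bp in DCIS, and neighbouring common regions often shared them. The 6241 regions fell on 5152 tested regions in 10A and 5153 in DCIS. The 10A shCTRL and both DCIS groups entered the selection as well as these comparisons, so the change and the selection are not independent. Each log2 fold change is that of 1 representative window of the tested region, which need not lie within the common region. ChIP-seq was made on populations of cells, so more cells with the mark and more mark per cell cannot be told apart.

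In 10A, the mark rose at most of the common regions. At an FDR under 0.05, 4474 were up (71.7%) in shANCO1 cells, against 43.6% of all 50284 tested regions, and 17 were down (0.272%), against 0.225%. The median log2 fold change was 0.80 (quartiles 0.64 and 0.97), and 98.1% of the regions had a positive value, against 91.8% of all tested regions. The 10A table as a whole was not centred on 0 and had a median of 0.76, so the common regions stood 0.034 log2 units above it at their median, and 55.5% of them lay above it. At least 1 log2 unit above the table median lay 17 common regions, and 96 lay as far below it. Over all tested 10A regions, 574 (1.14%) lay as far above and 2185 (4.35%) as far below. The share called up also moved with the width of the tested region. Where it was wider than 4 kb, 86.9% of common regions were up, against 85.4% of all tested regions of that width, and where it was at most 1 kb these shares were 24.2% and 25.2%. Within each class of width, the share of common regions called up lay within 3 percentage points of that of all tested regions.

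In DCIS, most of the common regions were not called. At an FDR under 0.05, 1153 were up (18.5%), against 23.6% of all 44790 tested regions, and 102 were down (1.63%), against 4.86%. A TSS lay within 1 kb of 3963 of the 6241 common regions and of 13199 of all tested regions. With a TSS, 8.15% of common and 7.99% of all tested regions were up, and without one 36.4% and 30.1%. Within each class the common regions were thus not the lower ones, unlike in the pooled shares. The median log2 fold change of the common regions was 0.56 (quartiles -0.039 and 1.00), against 0.52 over the table. A positive value was found for 71.7% of the regions, against 66.9% of all tested regions. At least 1 log2 unit above the table median lay 450 common regions, and 1056 lay as far below it. Over all tested DCIS regions, 7387 (16.5%) lay as far above and 9219 (20.6%) as far below. The deposited direction was mixed, with windows going both ways, for 1941 common regions (31.1%) in DCIS and 131 (2.10%) in 10A, against 17.4% and 6.50% of all tested regions. Of the 650 regions with a DCIS log2 fold change within 0.1 of 0, 643 had a mixed direction. In DCIS the share called up was lower among common regions than among all tested regions where the tested region was narrow. It was 7.39% against 23.4% for tested regions over 1 kb to 2 kb wide, and 30.5% against 28.9% for those wider than 4 kb. The narrow classes also differed in TSS content. On tested regions up to 2 kb wide, 1451 common regions had a TSS within 1 kb and 265 had none, against 9537 and 25905 of all tested regions. Split that way, the gap was smaller, at 4.27% against 6.22% with a TSS and 22.3% against 28.8% without. Since the rule asked for a marked region in both DCIS groups, a gain or loss that takes a region out of either DCIS table could not be among the members. The other 10A shCTRL regions that overlapped only the DCIS shANCO1 table were up in DCIS in 77.5% of cases, and those that overlapped only the DCIS shCTRL table in 2.87%.

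**Figure D2:**
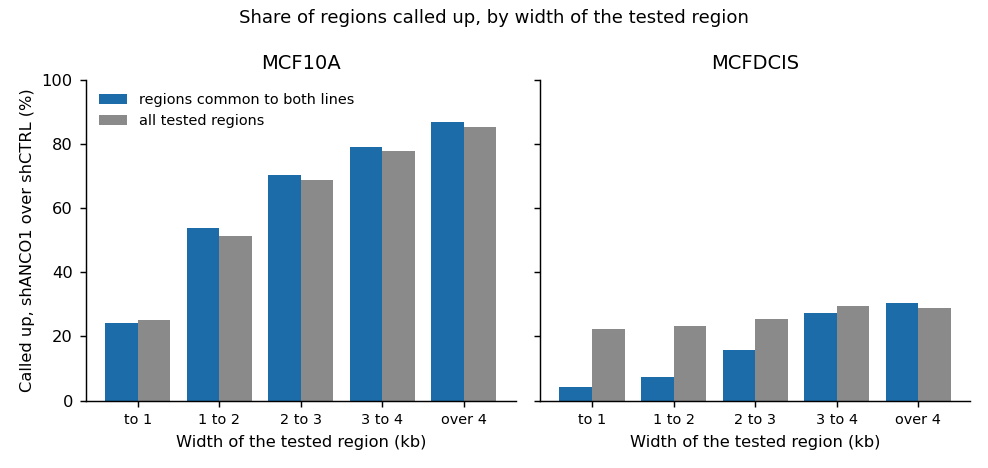
Share of regions called up at an FDR under 0.05 (percent, y axis) by the width of the directly tested region (kb, x axis), in MCF10A (left) and MCFDCIS (right). Blue bars are the 6241 common regions and grey bars all tested regions of the line. In MCF10A the bars of each pair rise together with width, and in MCFDCIS the common regions start at 4.30% in the narrowest class and reach 30.5% in the widest.

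The lines differed in how the change was spread between promoters and distal regions. In 10A, 2850 of the 3963 common regions with a TSS within 1 kb were up (71.9%), and so were 1624 of the 2278 without one (71.3%). In DCIS these counts were 323 (8.15%) and 830 (36.4%). The median DCIS log2 fold change was 0.37 (quartiles -0.13 and 0.76) with a TSS and 0.92 (quartiles 0.36 and 1.31) without. The medians in 10A were 0.79 and 0.82. Relative to the median of the DCIS table, 40.8% of the regions with a TSS and 71.4% of those without lay above it. A mixed direction was given in DCIS for 39.5% of the regions with a TSS and 16.4% of those without. A split by TSS was also present in the DCIS table as a whole, where 7.99% of tested regions with a TSS and 30.1% of those without were up, so it was not particular to the common regions. In the 10A table as a whole the shares were 59.8% and 38.3%.

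The DCIS split was also present among tested regions of like width. Among common regions on tested regions over 2 kb to 4 kb wide, 9.25% of 2152 with a TSS and 38.6% of 1356 without one were up in DCIS. On tested regions wider than 4 kb, the shares were 17.2% of 360 and 37.7% of 657. With distance, the DCIS share called up went from 8.42% for regions with a TSS inside and 8.04% for those up to 1 kb away to 25.4% at 1 to 5 kb, 41.7% at 5 to 20 kb, 39.2% at 20 to 100 kb and 33.9% beyond 100 kb. In 10A it ran between 66.9% and 78.1% over the same classes. Of the other 10A shCTRL regions, 6824 had a tested DCIS region, and their DCIS share was higher in every class of distance, from 14.0% to 65.7%. They were set apart by lacking a marked region in at least 1 DCIS group, so this difference is not independent of the rule.

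**Figure D3:**
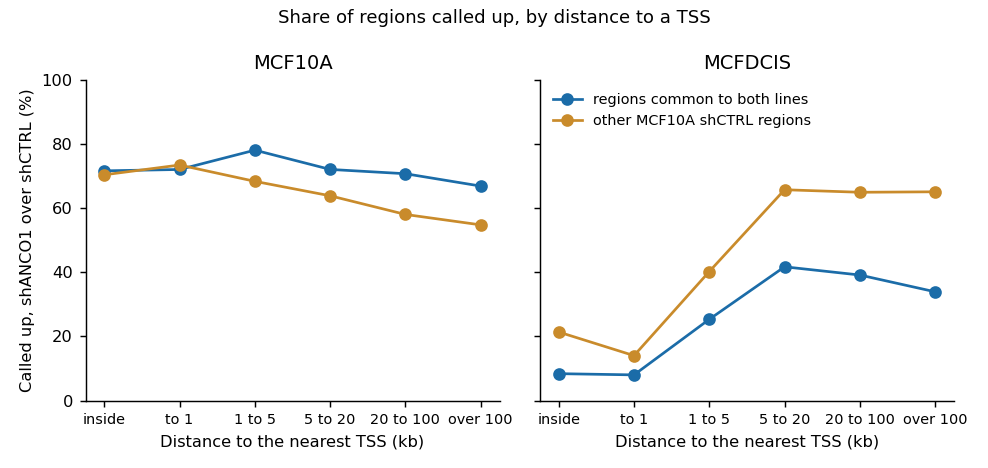
Share of regions called up at an FDR under 0.05 (percent, y axis) by distance to the nearest protein-coding transcription start site (kb, x axis), in MCF10A (left) and MCFDCIS (right). Blue points are the 6241 common regions and orange points the other 10A shCTRL regions that had a tested region. The rule parted these groups by their DCIS marks, so their DCIS shares are not independent of it. The blue line stays between 66.9% and 78.1% in MCF10A and climbs from 8.04% to 41.7% in MCFDCIS.

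The calls of the lines were then set side by side. Of the 6241 regions, 933 were up in both (14.9%), against 16.3% of the 29259 tested 10A regions that overlapped a tested DCIS region. A further 3484 were up in 10A and not called in DCIS, 216 were up in DCIS and not called in 10A, and 1492 were called in neither line. Opposite calls were rare, with 57 regions up in 10A and down in DCIS (0.913%, against 0.909% of those 29259) and 4 regions the other way. The direction was down in both for 3 regions. For the pairs of calls without a share beside them, the share over those 29259 regions was not computed. Across the 6241 regions, which are not independent of each other, the log2 fold changes of the lines correlated weakly (Spearman's correlation 0.133, Pearson's 0.132). DCIS was up at 20.9% of the regions up in 10A and at 12.5% of those that were not.

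**Figure D4:**
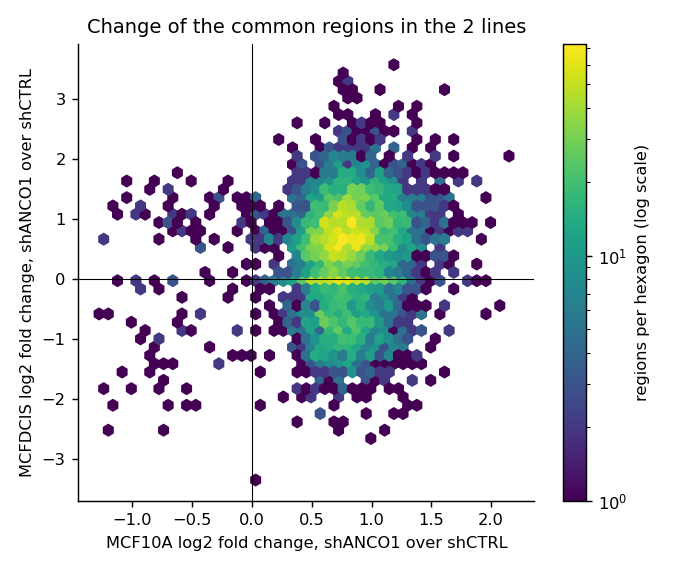
log2 fold change of shANCO1 over shCTRL in MCF10A (x axis) and MCFDCIS (y axis) at the 6241 common regions, with the colour giving the number of regions per hexagon on a log scale. The cloud lies to the right of 0 on the x axis, where 98.1% of the regions fall, and extends to both sides of 0 on the y axis, where 71.7% are positive. The line of dense hexagons at 0 on the y axis holds the 650 regions within 0.1 of 0, nearly all of mixed direction.

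The 933 regions up in both lines were mostly distal. A TSS lay within 1 kb of 285 of them (30.5%), compared with 2545 (73.0%) of the 3484 up in 10A only, 38 (17.6%) of the 216 up in DCIS only and 1063 (71.2%) of the 1492 called in neither. Their median log2 fold changes were 0.90 in 10A and 1.40 in DCIS, values that follow from the calls used to pick them. Their median G and C content was 45.7%, against 52.0% for those up in 10A only. In the DCIS table as a whole, too, regions with a TSS were less often up (7.99%) than those without one (30.1%). The TSS share of all tested regions up in both lines is not given here, so the distal share is not called particular to the common regions.

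By the smaller of the 2 log2 fold changes, and with at least 5 windows in each tested region, the region at chr3:150370601-150371900 led the set. It is intergenic, 36398 bp from the TSS of TSC22D2, and rose by 2.19 in 10A (FDR 4.39e-05, 28 of 39 windows up) and by 2.06 in DCIS (FDR 7.36e-05, 20 of 21 windows up). Next came chr14:54312601-54313100, which is intergenic and 83879 bp from the TSS of the phosphatase gene CDKN3, with 1.73 in 10A (FDR 0.00294) and 1.80 in DCIS (FDR 7.55e-05). The third, chr5:151080601-151082200, spans the TSS of TNIP1, which encodes a partner of A20 that restrains NF-kB. It rose by 1.70 in 10A (FDR 6.57e-05) and 2.38 in DCIS (FDR 1.65e-05). An intergenic region at chr1:209354701-209355200 rose by 1.68 (FDR 0.000225) and 2.02 (FDR 1.84e-05). The intronic IL1RAPL1 region at chrX:29661701-29662700, whose AP-1 heptamer is shown above, rose by 1.67 in 10A (FDR 1.26e-07) and by 1.75 in DCIS (FDR 0.0447), where 6 of 26 windows were up. These 5 regions stood 0.91 to 1.42 above the median of the 10A table and 1.23 to 1.85 above that of the DCIS table. Their log2 fold over input did not always rise. In 10A it went from 5.70 in shCTRL to 4.70 in shANCO1 at the first region. In DCIS it went from 5.66 to 5.21 at the second and from 5.08 to 4.54 at the third. At the fourth it was lower in shANCO1 in both lines (4.02 and 3.31 in 10A, 5.10 and 3.73 in DCIS). In the remaining cases it was higher in shANCO1.

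Among the regions up in both lines with a TSS within 1 kb, those with the lowest larger FDR were looked up after their values had been seen. At LAMB3, which encodes the beta chain of laminin-332 in the epithelial basement membrane, the region over the TSS (chr1:209651801-209653100) rose by 1.34 in 10A and 2.45 in DCIS, with 38 of 40 and 39 of 42 windows up. At GLDC, glycine decarboxylase of the mitochondrial glycine cleavage system, the region at chr9:6566701-6567300, 840 bp from the TSS, rose by 1.59 and 3.14, and all 27 DCIS windows were up. The region at STAMBP, an endosomal deubiquitinase, rose by 1.47 and 2.21. HMGA2, an architectural chromatin protein, had 0.81 and 2.48 at its TSS, and ECT2, an exchange factor needed for cytokinesis, had 1.00 and 2.78. SMAGP, a small transmembrane glycoprotein, had 1.05 and 1.73. At each of these 6 the DCIS value was the larger, and the FDR was at most 0.000158 in either line.

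Of the 57 regions up in 10A and down in DCIS, the widest gap was at PDGFC, a PDGF family growth factor. Its region (chr4:156970201-156970900, 3 bp from a TSS) rose by 1.01 in 10A (FDR 0.0191, 17 of 41 windows up) and fell by 2.68 on the log2 scale in DCIS (FDR 0.0032, 5 of 37 windows down). An intergenic region 96083 bp from the TSS of RIPOR2 (chr6:25138101-25139600) had 1.07 in 10A (FDR 0.0065) and -2.58 in DCIS (FDR 0.00141). The third, 119944 bp from the TSS of ZFP64 (chr20:51985201-51985700), had 1.38 (FDR 0.0285) and -2.15 (FDR 0.0011). In all of them a minority of the tested windows was called in DCIS. In 10A the regions at PDGFC, RIPOR2 and ZFP64 stood 0.25, 0.31 and 0.62 above the median of the 10A table. At the RIPOR2 region 5 of 23 windows were up in 10A, while the 10A log2 fold over input was 7.91 in shCTRL and 4.76 in shANCO1. At the ZFP64 region it was 3.44 and 3.22. Among promoter regions down in DCIS, looked up after the values were seen, those with the lowest FDR lay at CD63, a tetraspanin of late endosomes and exosomes (1.07 in 10A and -1.73 in DCIS, FDR 0.00224 and 0.000891), and, after PDGFC, at NNMT, nicotinamide N-methyltransferase (0.71 and -1.29, FDR 0.00461 and 0.00395). The region at NRG4, an EGF family ligand, fell in DCIS (-2.05, FDR 0.00411) and was not called in 10A (-0.67, FDR 0.597). In DCIS, 5 of 34 windows were down at CD63, 12 of 33 at NNMT and 7 of 38 at NRG4. The log2 fold over input at CD63 went the other way, with 2.49 in DCIS shCTRL and 4.67 in DCIS shANCO1. It was 6.64 and 6.08 at NNMT, and 6.31 and 5.56 at NRG4. Relative to the median of the 10A table, the 10A log2 fold change was 0.31 at CD63 and -0.054 at NNMT.

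The 4 regions down in 10A and up in DCIS had no TSS within 1 kb and overlapped no marked 10A shANCO1 region, and a pair of them shared a tested region. The AKAP6 intron region (chr14:32472801-32473400) had -1.07 in 10A (FDR 0.00375) and 1.63 in DCIS (FDR 0.00266). The region 282865 bp from the TSS of IRX5 (chr16:54647501-54648000) had -0.96 (FDR 0.00749) and 1.24 (FDR 0.0212), with 1 of 39 DCIS windows up. The region 29024 bp from the TSS of IRX2 (chr5:2780701-2781100) had -0.78 (FDR 0.0129) and 1.02 (FDR 0.0165). IRX2 and IRX5 encode Iroquois homeobox factors.

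Losses in 10A were few, at 0.272% of the common regions against 0.225% of all tested regions. The lowest value among the 17 was at chr4:158370201-158372300 in an intron of RXFP1, the relaxin receptor gene. It fell by 1.28 on the log2 scale in 10A (FDR 0.00927, 4 of 44 windows down) and by 1.82 on the log2 scale in DCIS (FDR 0.0133, 9 of 44 windows down and 1 up). Its log2 fold over input in DCIS went the other way, with 5.22 in shCTRL and 6.97 in shANCO1. By its calls this region was 1 of the 3 regions down in both lines. The other pair were neighbours on the same tested 10A region. The first of them, at chr2:55760401-55761600, lay 66557 bp from the TSS of PNPT1. There 22 of 26 windows in 10A and all 26 in DCIS were down, at -1.19 (FDR 0.00131) and -2.47 (FDR 3.96e-07). Further 10A losses lay in an intron of the DNA repair gene SPIDR (-1.26, FDR 0.0224) and 43448 bp from the TSS of GCLC (-1.20, FDR 0.00446), and neither was called in DCIS. At the region near GCLC the log2 fold over input in 10A was 3.50 in shCTRL and 3.81 in shANCO1. The lowest DCIS value was at an intergenic region 228342 bp from the TSS of C8orf34 on chromosome 8. It was -3.36 (FDR 3.95e-05, 26 of 30 windows down), while 10A had 0.04 (FDR 0.973).

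Lists of genes were followed through their common regions, counted where they lay in the gene or up to 5 kb before its start, and each gene was represented by the one nearest to its canonical TSS. Of 118 genes, 49 had a common region, and at 42 of them it lay within 1 kb of a TSS. Of these 49 representatives, 39 were up in 10A, 13 were up in DCIS, 10 were up in both, and 1 was down, in DCIS. Over all common regions 71.7% were up in 10A and 18.5% in DCIS, and over all tested regions 43.6% and 23.6%, and the counts for each list are to be read against these shares. The lists are short, and nothing is called particular to a list. As a check of the label mammary epithelial, a common region was present at 4 of 7 basal markers (KRT5, TP63, ITGB4 and LAMB3), at 4 of 5 luminal markers (ESR1, GATA3, KRT8 and KRT18) and at 1 of 13 markers of other cell types, PECAM1. KRT14, KRT17, COL17A1 and FOXA1 had none. Over the wider lists, a common region was present at 12 of 20 basal and 4 of 12 luminal genes. The mark was thus present at genes of both mammary lineages, and presence of the mark does not measure expression.

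Of the 12 basal epithelial genes with a common region, 8 were up in 10A, 7 in DCIS and 5 in both, and none was down. The medians over the 12 were 0.87 in 10A and 1.17 in DCIS, against 0.76 and 0.52 over the tables. LAMA3, KRT5 and TP63 were named after their values were seen. LAMA3, which encodes the alpha chain of laminin-332, had 0.19 in 10A (FDR 0.853) and 1.17 in DCIS (FDR 0.016). Its region lay 183648 bp from the canonical start and 56 bp from another LAMA3 TSS, and 4 of 27 DCIS windows were up. The log2 fold over input of this region in DCIS went the other way, with 7.15 in shCTRL and 3.77 in shANCO1. EGFR, the receptor of the EGF in the medium, had 0.74 (FDR 0.00367) and 1.27 (FDR 0.0276). KRT6A, a keratin of stressed and proliferating epithelia, had 0.88 (FDR 0.0137) and 1.37 (FDR 0.0297). The basal keratin KRT5 rose in 10A (1.10, FDR 0.00111) and had -0.61 in DCIS (FDR 0.456). TP63, the basal lineage factor, had -0.88 in 10A (FDR 0.156) and -1.55 in DCIS (FDR 0.0878) at its representative, 134812 bp from the canonical start, while its other common region was up in DCIS (1.35).

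Luminal genes had a common region at 4 of 12. KRT8, KRT18 and GATA3 were up in 10A, and ESR1 was up in DCIS, so that 0 were up in both. KRT8 and KRT18 encode the keratin pair of simple epithelia. KRT8 had 0.72 in 10A (FDR 0.0202) and 0.97 in DCIS (FDR 0.116), and KRT18 had 0.94 (FDR 0.00432) and -1.18 (FDR 0.559). GATA3, a luminal transcription factor, had 1.40 (FDR 0.00306) and -0.62 (FDR 0.641). The ESR1 region lay in an intron 92419 bp from the canonical start and had 0.75 in 10A (FDR 0.25) and 1.35 in DCIS (FDR 5.78e-05).

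Among genes for AP-1 subunits, 5 of 10 had a common region, 4 were up in 10A, and FOSL1 alone was also up in DCIS at its representative. FOSL1, which encodes FRA1, had 1.39 in 10A (FDR 4.47e-08, 22 of 23 windows up) and 1.58 in DCIS (FDR 0.000259, 26 of 37 windows up). FOSL2 had 0.94 (FDR 0.00054) and 0.75 (FDR 0.25), and FOS had 0.84 (FDR 0.0123) and -0.77 (FDR 0.859). JUNB, named after its values were seen, had 1.11 (FDR 0.000191) and -0.0038 (FDR 0.998). JUND was called in neither line, with 0.30 (FDR 0.288) and -0.029 (FDR 0.986). The list of YAP and TEAD genes had a common region at 6 of 13. At their representatives, 5 were up in 10A and only TEAD3 was up in DCIS. TEAD3, a DNA-binding partner of YAP, had 0.56 (FDR 0.0424) and 1.33 (FDR 0.000537), in an intron 10079 bp from the canonical start. WWTR1, which encodes the YAP paralog TAZ, had 0.89 (FDR 0.000797) and 0.58 (FDR 0.438), while its other common region was up in DCIS (1.25). AMOTL2, an angiomotin that binds YAP, had 0.82 (FDR 0.0146) and 0.48 (FDR 0.838). AJUBA, a LIM protein of the Hippo pathway, was called in neither line (0.41 with FDR 0.0506, and 0.90 with FDR 0.0771).

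NF-kB and inflammatory genes had a common region at 5 of 15, and 4 were up in 10A. CXCL3, a neutrophil chemokine, was the only member up in both lines, with 1.00 (FDR 0.000323) and 1.13 (FDR 0.00565). Its neighbour CXCL2 had 0.87 (FDR 0.0026) and 0.71 (FDR 0.191). NFKB1, which encodes the p105 precursor of p50, had 0.64 (FDR 0.0465) and 0.69 (FDR 0.0989), and NFKBIA, the inhibitor of NF-kB, had 0.49 (FDR 0.0522) and -0.079 (FDR 0.98). Of the acetylation machinery, 3 of 15 genes had a common region, and 3 were up in 10A and 0 in DCIS, too few to set against the shares over all common regions. They were the deacetylase genes HDAC1 (0.91, FDR 0.00219, and 1.47, FDR 0.166) and HDAC2 (0.95, FDR 0.00828, and -0.67, FDR 0.369) and the acetyltransferase gene EP300 (0.83, FDR 0.000876, and -0.13, FDR 0.97). ANKRD11 itself had no common region.

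Constitutively expressed genes were followed beside them. Of 15, 12 had a common region, 11 were up in 10A and 1 was up in DCIS. The medians over the 12 were 0.86 in 10A and 0.67 in DCIS. The ribosomal stalk gene RPLP0 was called in neither line (0.58 with FDR 0.112, and 0.91 with FDR 0.356). EEF1A1, a translation elongation factor, had 0.86 (FDR 0.00317) and 0.53 (FDR 0.437), and YWHAZ, a 14-3-3 protein, had 0.81 (FDR 0.0158) and 0.96 (FDR 0.0751). The share of constitutive representatives called up in 10A was thus of the same order as that of the other lists, and no list was tested against another.

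Of 9 genes that the study names, which it chose on these samples so that they are not independent evidence of direction, 2 had a common region, and both were up in both lines. S100A2, a calcium-binding protein of squamous epithelia, had 0.83 (FDR 0.000984) and 0.93 (FDR 0.0042). The endothelial adhesion gene PECAM1 was the only representative called down, with -1.05 in 10A (FDR 0.0904) and -1.79 in DCIS (FDR 0.00174).

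**Figure D5:**
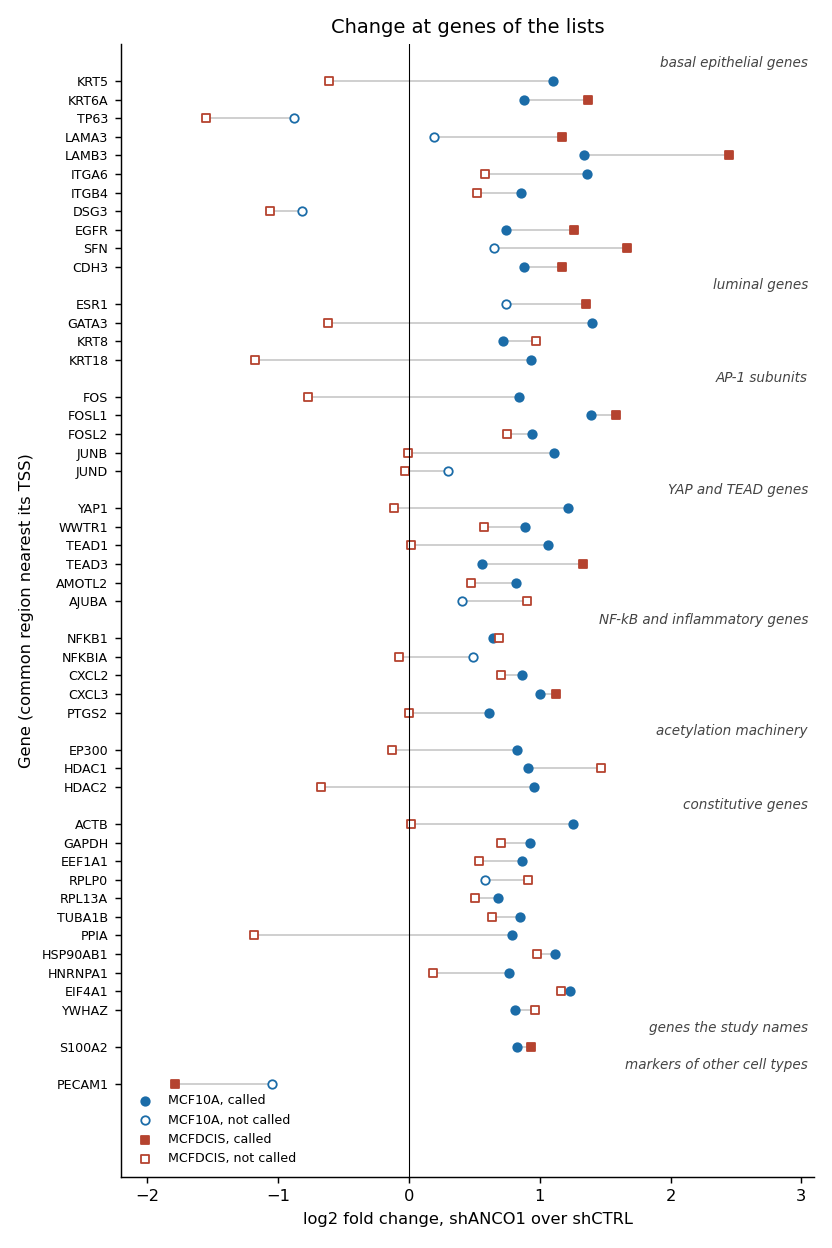
log2 fold change of shANCO1 over shCTRL (x axis) at the common region nearest the canonical start of each gene (y axis), grouped by list, with blue circles for MCF10A and red squares for MCFDCIS and filled symbols for an FDR under 0.05. Of the 49 genes, 47 are drawn. Filled blue circles stand at 37 genes and filled red squares to the right of 0 at 11, PECAM1 being the only filled symbol below 0.

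The widest common regions spanned 5000 bp each. Those at SNX5 and MGME1 on chromosome 20 and at HOXA3 on chromosome 7 cover a TSS, and the third lies within NRCAM, a neuronal adhesion molecule. All were up in 10A (0.58, 0.90 and 0.74). NRCAM and HOXA3, a homeobox gene, were also up in DCIS, at 3.14 (FDR 2.19e-07, 43 of 43 windows up) and 1.45 (FDR 0.0128).

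By chromosome, common regions made up between 22.8% (X) and 69.7% (chromosome 19) of the 10A shCTRL regions. Their DCIS share called up was highest on chromosome 3, at 30.7% (118 of 384), where 33.1% of all tested regions were up, and lowest on chromosome 19, at 12.8% (38 of 297), where 16.4% were. In 10A it ran from 56.5% on chromosome 21 (46 regions) to 79.9% on chromosome 20. Copy number was not analysed here.

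Short motifs were counted on either strand in the 300 bp at the midpoint of each region. The AP-1 heptamer TGACTCA occurred in 5.37% of the common regions and 6.08% of the other 10A shCTRL regions, and the TEAD motif ACATTCC in 4.01% and 4.74%. The GC box GGGCGG occurred in 25.2% and 8.69%, the ETS motif CCGGAAGT in 1.14% and 0.292%, and the STAT motif TTCCNGGAA in 1.19% and 0.833%. The ETS and STAT motifs share letters and can overlap. Split by TSS, the GC box was present in 35.0% of common regions with a TSS and 8.08% of those without. The AP-1 heptamer was present in 3.31% and 8.96%. In the other 10A shCTRL regions the AP-1 shares were 2.86% and 6.88%. Within each class the AP-1 share was thus higher in the common regions, the reverse of the pooled order. The GC box was present in 33.4% of the other regions with a TSS, close to the common regions. Without a TSS its share was lower in the other regions. The pooled shares therefore also reflect how many regions of each set had a TSS within 1 kb (63.5% against 20.1%). The 204 distal common regions with an AP-1 heptamer were up in DCIS in 34.8% of cases, and the 2074 distal common regions without it in 36.6%. In 10A these shares were 70.6% and 71.4%.

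At the edge of the rule, 274 common regions shared no more than 100 bp with one of the DCIS tables, and 322 regions missed the rule by a gap of at most 100 bp. Just inside, the median log2 fold change was 0.80 in 10A and 0.58 in DCIS, and 75.5% and 19.0% were up. Just outside, the medians were 0.81 and 0.42, and 69.6% of 322 and 15.9% of the 320 with a tested DCIS region were up.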

How the data were processed

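H3K27ac ChIP-seq libraries of 10A and DCIS cells were compared by the authors as whole groups, against input and, in the 2 direct tables, shANCO1 against shCTRL. Reads were aligned to GRCh38 and regions tested with csaw by the authors. How libraries were normalized and how windows were filtered and merged was not given in the sources used here. The deposited tables hold, for each region, its coordinates, numbers of windows, a direction, a p-value and its FDR, and the log2 fold change of a representative window. These are the authors' own test results, used because the tables hold nothing else. They give no values per library, so depth and replicate spread are unknown and no new test was made.

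Here, regions were intersected (at least 1 bp), each common region took the direct region sharing most bases, and a region was called at an FDR under 0.05 with the deposited direction up or down (mixed regions were not called). TSSs came from GENCODE release 44 and sequence from GRCh38. Motif shares are over the 300 bp at the midpoint. Motif and overlap steps were tested on simulated regions. Named regions were the 5 up in both lines by the smaller fold change, the 3 with the widest opposite changes each way, the 3 lowest per line and the 3 widest, with at least 5 windows in each direct region. Named genes were up to 4 per list with the lowest larger FDR of the 2 lines, and those down in a line, and further ones are said where named. The common regions, lists and rules were chosen with earlier results of these data known. Python 3.11.15, pandas 2.3.3, numpy 2.4.6, scipy 1.17.1 and matplotlib 3.10.9 were used. Alternatives changed the overlap, FDR and fold thresholds, the TSS distance and the motif window. A few results for single genes and a sequence are not reported here.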

Additional observations from a re-analysis of the deposited data

How the results depend on the processing

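The files give groups as a whole, so no library could be left out in turn. No paired analysis was possible because there are no values per library. Depth and the spread between replicates are unknown, and the FDR measures the spread between libraries whose origin from separate cultures is not given. A share of at least 50% of each region left 2337 common regions. At an FDR under 0.01, 2905 were up and 8 down in 10A, 680 up and 49 down in DCIS, and 450 up in both. At an FDR under 0.1, 28 were down in 10A and 161 in DCIS. Asking also for a log2 change of 1 or more in size, 1360 were up and 8 down in 10A and 302 up in both. At least 1 log2 unit from the table median, 17 were up in 10A, 419 in DCIS and 3 in both. The share overlapping a 10A shANCO1 region was 98.2% with at least 50% covered. A TSS lay within 2.5 kb of 66.8% and inside 18.5%. The AP-1 heptamer was in 3.49% of 200 bp windows and 11.1% of whole regions. Alternatives added after the data had been seen gave 38.5% of regions up in DCIS without a TSS within 2.5 kb, 20.8% without a TSS inside, and 70.3% of 10A regions up with each direct region counted once. The other 30 values kept to the range set for them. By the common region with most windows, the DCIS value changed sign at TP63 (1.35) and JUNB (1.77), both then called up, and at NFKBIA (0.63), EP300 (0.079) and ACTB (-0.20), not called either way. WWTR1 was then up in DCIS (1.25) and KRT6A not called (0.63), while 91 values at genes kept direction and call.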
